A study of Homo sapiens with 8 samples.

Results

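Promoters of PC9 cells were sorted by 2 histone marks, trimethylation of lysine 27 of histone H3 (H3K27me3) and trimethylation of lysine 4 of histone H3 (H3K4me3). PC9 cells are an established line from a human adenocarcinoma of the lung. Of the 8 libraries of the series, the 4 libraries from control cells were used, 2 per mark, from PC9 cells that had received DMSO, the solvent of the inhibitor GSK126, for 5 days. The other 4 libraries came from cells treated with GSK126 and were not used here. Each mark was precipitated with the same antibody in both of its libraries, and the title of replicate 2 of each mark names a D. melanogaster spike, which is fly chromatin added as a reference. Replicates were numbered by the order of the sample records, since the labels give no numbers, and the labels do not say whether they came from separate cultures. The paper describes its duplicate H3K27me3 experiments in DMSO-treated PC9 cells as biological replicates. The members were all 20144 protein-coding genes of the GENCODE annotation mapped to GRCh37, and the promoter of a gene was the window of 4001 bp that reaches 2000 bp to either side of the gene start. A promoter carried a mark when an enriched island of that mark overlapped its window by at least 1 bp in both replicates, and lacked it when neither replicate had such an island. Promoters were thereby classed as H3K4me3 only, H3K27me3 only, both or neither, and those on which the replicates of either mark disagreed were kept apart.

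H3K4me3 is deposited by the SET1 and MLL (KMT2) methyltransferase complexes around the starts of genes that are transcribed or poised for transcription, most often over CpG islands. H3K27me3 is deposited by EZH2 or EZH1 within Polycomb repressive complex 2 (PRC2) and is bound by CBX subunits of Polycomb repressive complex 1 (PRC1), and it covers silent developmental genes in domains that can be far longer than a promoter. Promoters that hold both marks were first described at developmental genes of embryonic stem cells and are called bivalent. ChIP-seq of a cell population cannot tell whether both marks lie on the same nucleosome, on different alleles or in different cells. Polycomb and H3K4 methyltransferase complexes are both recruited to unmethylated CpG-rich DNA, and the sequence around the start is therefore given beside the marks.

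The 250 bases before the start of 5 promoters are shown so that the sequences behind the classes can be compared. They were read from GRCh37 and are written 5′ to 3′ along the strand of the gene, with every CpG dinucleotide in capitals. RPL7A, a ribosomal protein gene (chr9:136214823-136215072, plus strand), and DUSP6, a phosphatase that limits ERK signalling (chr12:89746279-89746528, minus strand), carried H3K4me3 only and held 25 and 16 CpG dinucleotides. NFIX, a transcription factor gene (chr19:13106039-13106288, plus strand), carried both marks and held 37. NEUROG3, a transcription factor of endocrine and neural progenitors (chr10:71333179-71333428, minus strand), carried H3K27me3 only and held 25. IFNA14, a type I interferon gene (chr9:21240005-21240254, minus strand), carried neither mark and held 1.
RPL7A: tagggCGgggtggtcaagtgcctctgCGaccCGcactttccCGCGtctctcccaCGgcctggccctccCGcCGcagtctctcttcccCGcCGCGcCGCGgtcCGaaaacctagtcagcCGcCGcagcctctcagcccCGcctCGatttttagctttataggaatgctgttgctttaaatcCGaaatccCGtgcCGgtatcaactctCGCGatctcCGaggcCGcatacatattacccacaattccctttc
DUSP6: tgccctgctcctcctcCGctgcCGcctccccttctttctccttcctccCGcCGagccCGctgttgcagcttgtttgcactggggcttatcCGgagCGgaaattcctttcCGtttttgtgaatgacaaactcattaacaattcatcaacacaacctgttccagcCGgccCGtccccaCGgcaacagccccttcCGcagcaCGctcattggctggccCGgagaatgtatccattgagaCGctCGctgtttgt
NFIX: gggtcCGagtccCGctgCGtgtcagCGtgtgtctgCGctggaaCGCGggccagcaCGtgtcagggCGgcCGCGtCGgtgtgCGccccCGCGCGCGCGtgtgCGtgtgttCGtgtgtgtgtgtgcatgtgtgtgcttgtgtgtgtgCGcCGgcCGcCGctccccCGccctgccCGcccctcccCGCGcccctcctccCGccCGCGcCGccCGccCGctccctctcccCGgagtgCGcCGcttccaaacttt
NEUROG3: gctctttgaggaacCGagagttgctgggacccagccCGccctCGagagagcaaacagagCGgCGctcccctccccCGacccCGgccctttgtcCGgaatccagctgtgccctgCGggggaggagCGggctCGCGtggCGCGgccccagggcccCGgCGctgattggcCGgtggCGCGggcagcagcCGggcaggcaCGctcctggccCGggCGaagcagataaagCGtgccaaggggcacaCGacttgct
IFNA14: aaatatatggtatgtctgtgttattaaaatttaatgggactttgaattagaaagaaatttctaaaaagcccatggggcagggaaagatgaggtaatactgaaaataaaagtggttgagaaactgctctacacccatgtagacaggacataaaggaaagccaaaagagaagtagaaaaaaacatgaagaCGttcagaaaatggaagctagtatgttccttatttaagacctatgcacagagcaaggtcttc

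Depth was not the same in all libraries. The lists hold islands and not tags, but the score of an island depends on the tag density of its library, and the scores gave a mean of 1.77 tags per 200-bp window for H3K4me3 replicate 1, 0.302 for H3K4me3 replicate 2, 1.36 for H3K27me3 replicate 1 and 1.55 for H3K27me3 replicate 2. H3K4me3 replicate 2 therefore stood apart, with a density 5.86 times lower than replicate 1, and its islands were fewer (18420 against 23875) and covered less of the genome (40.0 Mb against 85.2 Mb). H3K27me3 had 26380 and 33341 islands, which covered 279 Mb and 258 Mb. The agreement of the replicates on promoters was nevertheless high. Of the promoters with an H3K4me3 island in either replicate 95.3% had it in both, with 582 in replicate 1 alone and 13 in replicate 2 alone, and for H3K27me3 this was 82.6%, with 391 and 366. Whether the 582 promoters of H3K4me3 replicate 1 alone follow from its depth was not tested.

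H3K4me3 lay on many more promoters than H3K27me3. H3K4me3 islands met 63.4% of promoters in replicate 1 and 60.5% in replicate 2, and H3K27me3 islands met 19.8% and 19.7%. The values of the marks did not overlap, and the means differed by 42.2 percentage points (62.0% ± 2.0 against 19.7% ± 0.0878, SD, n = 2; exact permutation test, two-sided, p = 0.333, the smallest p that 2 against 2 libraries allow). Islands of H3K27me3 at promoters were the longer ones. The median promoter island was 9.6 and 7.4 kb for H3K27me3 and 4.4 and 2.4 kb for H3K4me3, a difference in means of 5.1 kb (exact permutation test, two-sided, p = 0.333). SICER joined windows across gaps of up to 600 bp for H3K27me3 and 200 bp for H3K4me3, and the part of this setting in the difference in length was not tested.

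H3K4me3 only was the most frequent class, with 10749 promoters (53.4% of all). H3K27me3 only held 2301 promoters (11.4%), both marks 1104 (5.48%) and neither mark 4669 (23.2%), and the replicates differed on 1321 (6.56%). When 1 library per mark was used in place of both, the 4 possible choices gave 10875 to 11337 promoters with H3K4me3 only, 2480 to 2729 with H3K27me3 only, 1235 to 1509 with both and 4843 to 5280 with neither, and the order of the classes was the same in each choice. The spike-in normalized H3K27me3 lists, in which no tags had been removed from the DMSO libraries, gave 10636, 2490, 1222 and 4502 promoters, and 1294 on which the replicates differed. The share with H3K27me3 was lower among promoters with H3K4me3 than among those without, in each choice of libraries. Of the promoters with H3K4me3 9.31% also had H3K27me3 (10.1% to 11.8% over the 4 choices), whereas 33.0% of the promoters without H3K4me3 had it (33.6% to 34.4%). Seen from the other side, 32.4% of the promoters with H3K27me3 also had H3K4me3.

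**Figure D1:**
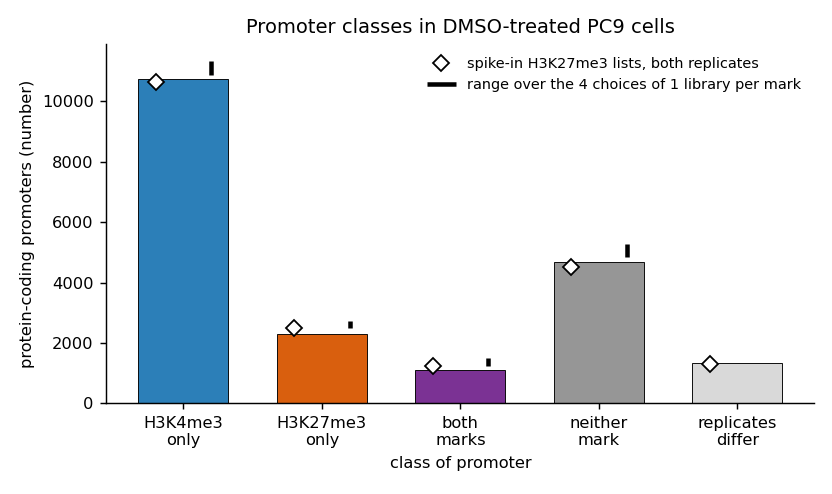
Number of protein-coding promoters in each class (bars, islands of both replicates, standard lists), with the range over the 4 choices of 1 library per mark (black lines; none for the class on which replicates differ) and the number from the spike-in H3K27me3 lists (diamonds). H3K4me3 only is the largest class (10749) and both marks the smallest (1104).

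The size of the class with both marks depended on how much of the window had to be covered. Only 504 promoters had islands of both marks over the start itself in both replicates, and 223 had at least 50% of the window covered by each mark. Requiring at least 500 bp of overlap left 978, and a score of at least 2 times the lowest score of each list left 722. Within the 1104 windows the islands of the marks mostly lay over each other. They overlapped by at least 1 bp in 84.7% to 94.5% of the windows over the 4 choices, and in 909 windows (82.3%) in every choice. In the other windows the islands lay side by side. With the deeper H3K4me3 replicate 1, H3K27me3 islands of replicate 1 covered a median of 96.7% of the H3K4me3 island bases in the window, and those of replicate 2 covered 80.0%.

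Both marks were arranged differently around the start. At H3K4me3 only promoters, H3K4me3 was highest just inside the gene, where the islands of replicate 1 covered 97.9% of the promoters at 300 bp and those of replicate 2 covered 94.9% at 200 bp, and it was at 39.0% and 11.5% at 2000 bp upstream and at 77.7% and 30.8% at 2000 bp inside the gene. H3K27me3 at H3K27me3 only promoters varied less, with 72.8% and 66.6% at 2000 bp upstream, 90.1% and 87.7% at the start and 86.7% and 82.8% at 2000 bp inside. H3K27me3 filled the whole window at 56.3% and 47.6% of these promoters. Where both marks were present, each was shorter and less often over the start. The H3K4me3 island had a median length of 3.8 and 2.0 kb at promoters with both marks against 4.6 and 2.4 kb at promoters with H3K4me3 only, and it covered the start at 90.4% and 80.9% of the promoters against 97.5% and 94.0%. The H3K27me3 island had a median of 8.2 and 6.5 kb against 11.8 and 9.4 kb at promoters with H3K27me3 only, and covered the start at 70.2% and 64.3% against 90.1% and 87.7%. Each of these 4 differences had the same direction in both replicates, and the shallow H3K4me3 library gave shorter islands in both classes.

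**Figure D2:**
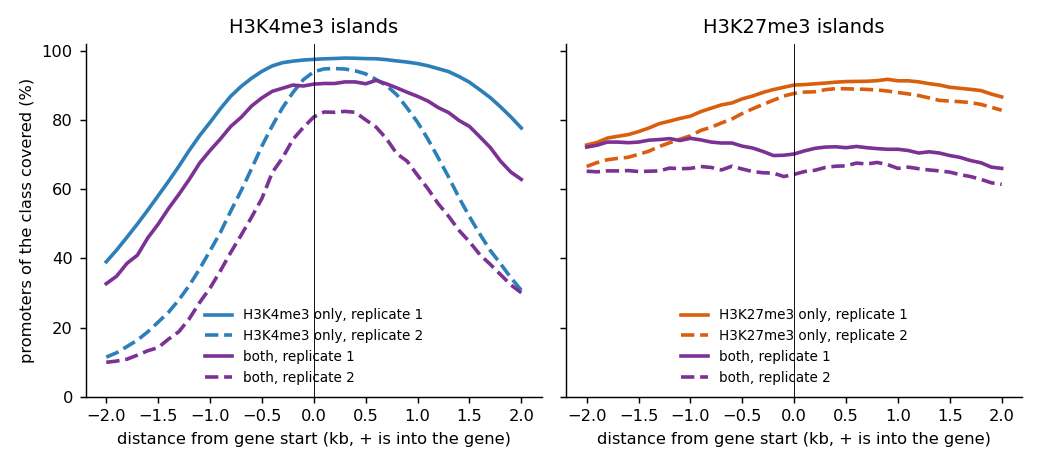
Share of the promoters of a class that is covered by an island at each distance from the gene start (x axis in kb, positive into the gene), for H3K4me3 (left) and H3K27me3 (right), replicate 1 as solid and replicate 2 as dashed lines. H3K4me3 is highest just inside the gene (97.9% and 94.9% of H3K4me3 only promoters), whereas H3K27me3 at H3K27me3 only promoters stays between 66.6% and 91.8% across the window.

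The sequence around the start differed between the classes. The observed-to-expected CpG ratio was counted within 500 bp of the start, where 1 is the number of CpG dinucleotides that the content of C and G would give. Its median was 0.77 for H3K4me3 only (0.77 in each of the 4 choices of libraries), 0.76 for both marks (0.74 to 0.76), 0.38 for H3K27me3 only (0.37 to 0.39) and 0.26 for neither mark (0.26 to 0.27), against 0.69 over all promoters. Promoters were called CpG-rich at a ratio of at least 0.6 and a GC content of at least 50%, and 57.6% of all promoters were. This share was 80.9% for H3K4me3 only, 75.7% for both marks, 32.9% for H3K27me3 only and 16.2% for neither mark. Promoters with both marks were thus close to H3K4me3 only promoters in their CpG ratio, and had the highest GC content of the classes with a median of 66.4%, against 61.6% for H3K4me3 only, 58.3% for H3K27me3 only and 47.2% for neither mark. From the bin of the lowest ratio (under 0.2) to that of the highest (over 0.8), the share of promoters with H3K4me3 only went from 8.25% to 78.1% and that of promoters with neither mark from 64.7% to 4.97%. H3K27me3 only was most frequent in the bin from 0.2 to 0.4, with 23.1% of 3323 promoters, and least frequent above 0.8, with 5.51% of 5791.

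**Figure D3:**
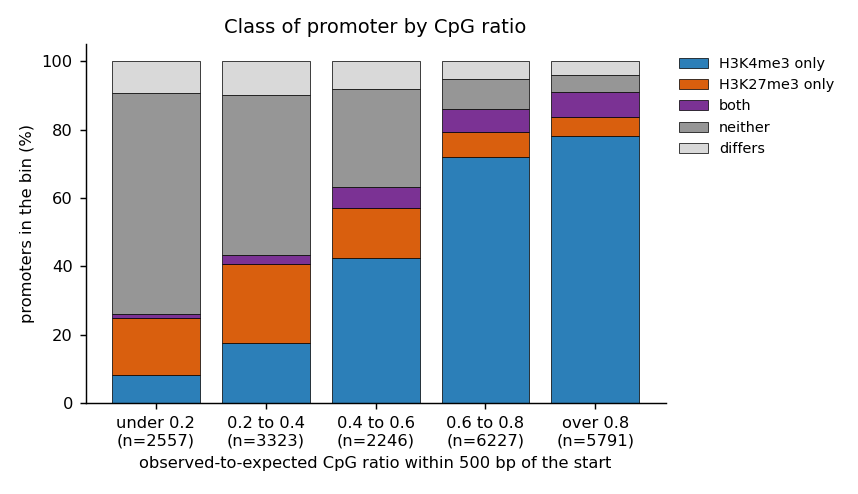
Share of each promoter class (stacked, % of the bin) in 5 bins of the observed-to-expected CpG ratio within 500 bp of the gene start, with the number of promoters in each bin. H3K4me3 only rises from 8.25% to 78.1% and neither mark falls from 64.7% to 4.97%, while H3K27me3 only is highest, at 23.1%, between 0.2 and 0.4.

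Within the H3K27me3 only class, the 756 CpG-rich promoters lay in a median H3K27me3 island of 13.8 and 10.8 kb, and the 1545 others in one of 11.0 and 8.8 kb. Their genes had a median length of 36.5 kb and 13.8 kb, and the nearest other protein-coding start was at a median of 57.8 kb and 23.2 kb. CpG-rich promoters went with longer genes and more distant neighbours in the other classes too, with gene lengths of 37.1 against 17.1 kb for neither mark, 29.5 against 16.7 kb for both and 34.2 against 24.5 kb for H3K4me3 only. H3K4me3 only promoters without a CpG-rich start numbered 2048, or 19.1% of their class, and had almost the same median H3K4me3 island as the CpG-rich ones (4.4 and 2.4 kb against 4.6 and 2.6 kb).

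Short sequence motifs were searched on both strands from 250 bases before to 50 bases after the start. A match is only a match of letters. TATAAA, the core of the TATA box, was found in 10.9% of all promoters, and in 22.4% of those with neither mark, 12.8% with H3K27me3 only, 6.07% with both and 5.85% with H3K4me3 only. GGGCGG, the GC box bound by SP1, was found in 52.2% of all promoters. It was present in 73.0% of promoters with both marks and 66.3% with H3K4me3 only, and in 43.2% with H3K27me3 only and 21.0% with neither. CCGGAAG, the core of ETS sites, differed between H3K4me3 only promoters and those with both marks, whose CpG ratios were close. It was found in 18.8% of promoters with H3K4me3 only but in 7.07% with both, in 2.91% with H3K27me3 only and in 3.02% with neither (11.8% of all). CCAAT (35.8% of all) and the E-box CACGTG (8.33% of all) varied less, from 30.1% to 38.0% and from 6.17% to 9.68% over the 4 classes. GGGCGG and CCGGAAG contain a CpG, and whether their frequency moves with the CpG ratio was not tested.

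Genes that every cell needs were mostly in the H3K4me3 only class. H3K4me3 alone was found at 76 of 85 cytosolic ribosomal protein genes, 31 of 33 replication licensing and fork genes, 18 of 20 cytosolic aminoacyl-tRNA synthetase genes, 31 of 37 genes of respiratory complex I, 26 of 31 proteasome genes and 15 of 21 genes of glycolytic enzymes, where 53.4% of all promoters had it. RPL23A, a protein of the large ribosomal subunit, lay in an H3K4me3 island of 16 kb in replicate 1 and 8.8 kb in replicate 2 with no H3K27me3 in either library. CDT1, which loads the replicative helicase, had islands of 13.0 and 6.2 kb. Several exceptions went with the choice of start. At the start of the canonical transcript, used as an alternative that was chosen after seeing the data, the counts rose to 79, 33, 20, 33, 29 and 16. MARS1, the methionyl-tRNA synthetase gene, was the only synthetase with H3K27me3 only (islands of 24.6 kb in both replicates at the annotated gene start), and it had H3K4me3 only at its canonical start. GARS1, RFC5 (a clamp loader subunit), PSMA6 and PSMC2 (proteasome subunits) had neither mark at the gene start and H3K4me3 only at the canonical start. The proteasome genes PSMA1, PSMD1 and PSMD2 had H3K4me3 in both replicates and H3K27me3 in replicate 1 alone, over 60%, 16% and 10.4% of the window. KRAB and other zinc finger genes named ZNF followed the same pattern as the genes above, with 388 of 508 in the H3K4me3 only class and 19 in the H3K27me3 only class.

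Among cell type markers, only the epithelial ones were mostly in the H3K4me3 only class. Of 12 epithelial markers 10 had H3K4me3 only (53.4% of all promoters) and none had H3K27me3 in both replicates. Among the 10 were the keratin gene KRT19 (islands of 14.4 and 6.6 kb), KRT7 (12.2 and 9.6 kb), KRT8 (10.8 and 5.6 kb) and the splicing regulator ESRP1 (6.6 and 5.2 kb). The KRT8 islands lay at the annotated gene start (53343738) and did not reach its canonical start (53298860), which also had H3K4me3 only. The remaining markers were EPCAM, with an H3K4me3 island in replicate 1 alone, and CLDN4, with neither mark at the gene start, and both had H3K4me3 only at the canonical start. Alveolar and airway markers were split, with FOXA1, FOXA2, LAMP3 and HOPX in the H3K4me3 only class (33.3%, against 53.4% of all promoters). H3K27me3 was found in both replicates at 5 of these 12 markers (41.7%, against 17.9% of all promoters). The lung lineage factor NKX2-1 carried both marks, and 3 of the 12 genes had H3K27me3 only. Markers of blood cells mostly had H3K27me3, which was found alone at 6 of 10 (11.4% of all promoters), including MS4A1 of B cells, LCP2 of T cells and SPI1, the PU.1 gene of myeloid and B cells, and neither mark at PTPRC and LYZ, while CD14 had short H3K4me3 islands of 1.6 and 1.0 kb. Of 9 fibroblast markers 6 had neither mark (23.2% of all promoters), among them COL3A1 and DCN, PDGFRB and THY1 had H3K27me3 only, and COL1A1 carried both marks. Endothelial markers were divided, with CDH5 and ESAM in H3K4me3 only, TIE1 and VWF in H3K27me3 only, and CLDN5 and TEK in neither. The H3K4me3 islands at CDH5 covered 25.2% and 20.2% of the window, and the H3K27me3 islands at TIE1 16.3% and 26.3%. The islands of these 2 genes did not cover the start, and with the spike-in lists the replicates differed at TIE1. Of 10 neuroendocrine and neuronal markers 3 had H3K4me3 only, 3 had H3K27me3 only and 2 had neither mark. Of 14 genes of the epithelial to mesenchymal transition 6 had H3K4me3 only, 3 had H3K27me3 only and 2 had both marks, the first including the transcription factor genes SNAI2 and ZEB1. Expression was not measured in these libraries.

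Genes that restrain ERK signalling mostly carried H3K4me3 alone. PC9 grows on signalling from a mutant EGF receptor, which acts through ERK. Of 13 feedback genes of this pathway 12 had H3K4me3 only (92.3%), where 53.4% of all promoters did. Replication genes (93.9%), aminoacyl-tRNA synthetase genes (90%) and ribosomal protein genes (89.4%) had similar shares. Whether the marks of the feedback genes follow from signalling was not tested. The phosphatase genes DUSP4, DUSP5 and DUSP6 had their whole window covered in both replicates, in islands of 14.6 and 9.2 kb, 11.0 and 6.6 kb, and 10.4 and 7.6 kb. ETV4, a transcription factor induced by ERK, had neither mark at the gene start and H3K4me3 only at the canonical start. Among the EGFR family and its ligands 6 of 15 had H3K4me3 only, a lower share (40%) than of all promoters, with ERBB4, EREG, HBEGF and TGFA as the most covered of them. Both marks were found at 2 (13.3%, against 5.48% of all promoters) and neither mark at 5 (33.3%, against 23.2%). These counts depended on the choice of start. At the canonical start 8 of 15 had H3K4me3 only, 1 had both marks and 4 had neither. By the mean of both replicates, which replicate 1 dominates, the longest H3K4me3 islands of the class were those of PMEPA1, an inhibitor of TGF-beta signalling (37.8 kb in replicate 1 and 8.6 kb in replicate 2), LRRC14 (21.2 and 21.0 kb), the ephrin receptor gene EPHA2 (25.2 and 16.8 kb), BCL9L, a coactivator of beta-catenin (25 and 8.8 kb), and TINAGL1 (24.0 and 9.2 kb), together with the unnamed gene ENSG00000291316 (25.4 and 10.4 kb). The replicates gave nearly the same length at LRRC14 and very different ones at PMEPA1, whose island was shorter in replicate 2 than those of KRT7 and DUSP4.

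The H3K27me3 only class held transcription factor genes of other lineages. An H3K27me3 island in both replicates was found at 17.9% of all promoters. Of 19 neurogenic basic helix-loop-helix genes 12 had H3K27me3 only (11.4% of all promoters), among them NEUROG1 (19 and 16.8 kb), NEUROG3 (50.6 and 47.4 kb) and BHLHE23 (126.6 and 125.8 kb). H3K27me3 only was also found at 5 of 9 PAX genes, 6 of 12 LIM homeobox genes, 6 of 17 T-box genes and 12 of 39 HOX genes. PAX2, a regulator of kidney development, lay in islands of 136.0 and 120.6 kb, TBX5, a factor of heart and forelimb, in islands of 42.6 and 38.0 kb, and LHX5, a neural factor, in islands of 29.2 and 18.4 kb. HOXB13 lay in an island of 54.6 kb in both replicates and HOXD1 in islands of 60.6 and 70.4 kb. The HOX genes were spread over all classes, with 5 in H3K4me3 only, 8 in both, 6 in neither and 8 on which the replicates differed. Of the 6 GATA genes, GATA3 and GATA6 had H3K4me3 only and GATA4 and GATA5 had H3K27me3 only, with islands of 13.6 and 11.6 kb at GATA4 and of 69.2 kb in both replicates at GATA5. GATA1 had neither mark, and GATA2 an H3K4me3 island in replicate 1 alone. Forkhead genes had H3K4me3 only at 21 of 52 and H3K27me3 only at 11, SOX genes at 8 and 5 of 19, and NKX genes at 4 and 4 of 14. The shares with H3K4me3 only (40.4%, 42.1% and 28.6%) were below that of all promoters (53.4%). Those with H3K27me3 only (21.2%, 26.3% and 28.6%) were above it (11.4%). FOXA1, a pioneer factor of endoderm, had H3K4me3 islands of 14.0 and 5.0 kb, and SOX9, a factor of airway and other progenitors, 6.8 and 5.0 kb. Growth factor families were split. FGF genes had H3K4me3 only at 5 of 22 and H3K27me3 only at 5, the TGF-beta family at 11 and 6 of 33, and the frizzled receptors of WNT at 6 and 2 of 10. In this order, 22.7%, 33.3% and 60% had H3K4me3 only, against 53.4% of all promoters. H3K27me3 only was found at 22.7%, 18.2% and 20%, against 11.4% of all promoters.

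Channels, receptors and immune genes made up another share of this class. Of 40 voltage-gated potassium channel genes 18 had H3K27me3 only, 8 had both marks and 2 had H3K4me3 only, where 11.4%, 5.48% and 53.4% of all promoters did. The window was covered in full by H3K27me3 in both replicates at KCNA1, KCNA4, KCNA5 and KCNA10, in islands between 9.0 and 86.8 kb. Genes of GABA-A and ionotropic glutamate receptors had H3K27me3 at 14 of 38 promoters (17.9% of all) and neither mark at 22 (23.2% of all). MHC class II genes, which present antigen in professional immune cells, had H3K27me3 only at 7 of 15 (11.4% of all promoters). Among these were HLA-DPA1 (30.8 and 13.4 kb), HLA-DOA (24.2 and 8.8 kb), HLA-DQB2 (17.8 and 13.2 kb) and HLA-DMB (11.2 and 9.0 kb). Chemokine genes had H3K27me3 only at 14 of 45 (11.4% of all promoters) and neither mark at 19 (23.2% of all). The median CpG ratio was 0.78 for the potassium channel genes, 0.18 for the MHC class II genes and 0.17 for the chemokine genes, so that H3K27me3 was found on gene groups of high and of low ratio.

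Long H3K27me3 islands spanned some whole genes. The longest at an H3K27me3 only promoter, in replicate 1 and by the mean of both, was that of ZBTB16, a zinc finger factor of blood and spermatogonia, with 348.6 kb in replicate 1 and 149.8 kb in replicate 2. LINGO1, a neuronal membrane protein gene, had the longest island of replicate 2 and lay in islands of 232.6 and 234.0 kb. ADAMTSL2 lay in islands of 232.8 and 193.4 kb, and CDH22, a cadherin of the brain, in islands of 253.0 and 129.8 kb. CRHR1, the receptor of corticotropin-releasing hormone, lay in islands of 184.0 and 184.2 kb. ADGRB1, an adhesion receptor of the brain, had islands of 194.2 and 192.2 kb. These began at 143531601 in both replicates, inside the gene and past its start (143530791, plus strand). The lengths of the replicates were nearly equal at LINGO1, ADGRB1 and CRHR1 and far apart at ZBTB16 and CDH22. At LINGO1 the canonical start carried both marks, while no H3K4me3 island met the window of the annotated gene start.

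Promoters with both marks belonged to genes of many kinds. Homeobox genes of the distal-less, sine oculis and Iroquois families had both marks at 5 of 18 and H3K27me3 only at 5, the latter including IRX1 (68.2 and 48.0 kb of H3K27me3) and IRX4 (124.6 and 138.4 kb), and WNT ligands had both marks at 4 of 19, against 5.48% of all promoters. Among cell cycle genes CDKN1C, the inhibitor p57, was the only 1 of 7 CDK inhibitors with H3K27me3 (14.3%, against 17.9% of all promoters). Its H3K27me3 islands of 10.0 and 9.4 kb covered the window, beside H3K4me3 islands of 2.6 and 1.0 kb. The longest H3K27me3 islands at promoters with both marks were those of SEC13 (214.4 and 215.2 kb), the tau gene MAPT (184.0 and 184.2 kb), PTP4A3 (203.6 and 110.4 kb), the elongation factor EEF1A2 (87 and 179 kb), NFIX (118.8 and 107.0 kb) and the axon guidance gene NTNG2 (118.6 and 106.4 kb). The H3K4me3 islands at these starts were short, between 0.8 and 5.0 kb. At SEC13, a gene of the COPII coat and the nuclear pore, H3K4me3 covered 80.1% and 55.0% of the window and H3K27me3 44.9% and 34.9%. The long H3K27me3 islands began at 10363001 and 10363401, upstream of the SEC13 start (10362796, minus strand). They bordered the gene and did not cover its start. MAPT and CRHR1 lay in the same H3K27me3 domain of chromosome 17, as their equal island lengths show. The longest H3K4me3 islands of the class, at TRMT61A (28.2 and 5.8 kb), AC005606.1 (24.6 and 5.2 kb), PRRT2 and PAGR1 (19.8 kb in replicate 1 for both genes), MAPK12 (18.2 and 6.4 kb), SNAPC2 (16.8 and 7.0 kb) and IQANK1 (15.2 and 13.8 kb), lay beside shorter H3K27me3 islands of 3.6 to 13.2 kb. AC005606.1 had H3K27me3 over 100% and 95.8% of the window, and the other 6 genes had it over 19.4% to 48.3%.

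**Figure D4:**
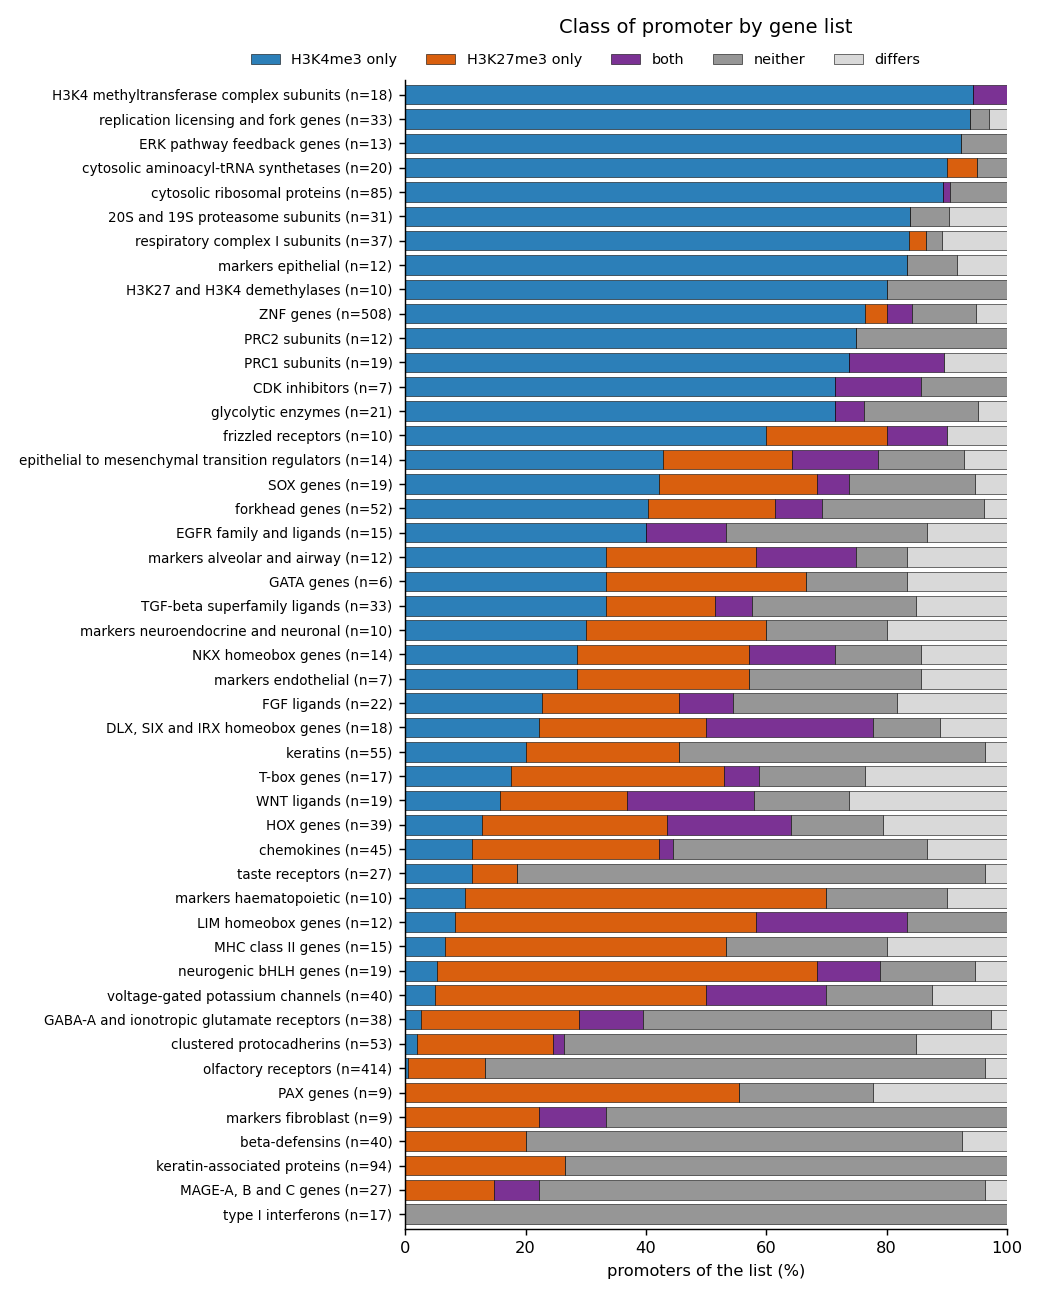
Share of the promoters in each class (stacked, %) for 47 gene lists, ordered by the share with H3K4me3 only, with the number of genes in each list. Subunits of H3K4 methyltransferase complexes and housekeeping lists are at the top, developmental regulators and channels in the middle and lower part, and type I interferon genes, all with neither mark, at the bottom.

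Neither mark was found at gene families of the senses, the skin and antiviral defence. Olfactory receptor genes had neither mark at 344 of 414 promoters, keratin-associated protein genes of hair at 69 of 94, beta-defensin genes at 29 of 40, taste receptor genes at 21 of 27 and type I interferon genes at 17 of 17, against 23.2% of all promoters. The median CpG ratio of these lists lay between 0.11 and 0.19. H3K27me3 only was found at 12.8% of the olfactory receptor genes (53), near its share of all promoters (11.4%), at 25 of the keratin-associated protein genes, at 8 of the beta-defensin genes and at 2 of the taste receptor genes. H3K4me3 only was found at 3 taste receptor genes, at 2 olfactory receptor genes and at none of the keratin-associated protein and beta-defensin genes. Clustered protocadherin genes had neither mark at 31 of 53 and H3K27me3 only at 12. Their median CpG ratio was 0.65, but only 9.43% of them were CpG-rich, against 57.6% of all promoters. Keratin genes were in 3 classes, with 28 of 55 in neither, 14 in H3K27me3 only and 11 in H3K4me3 only, the last with KRT7, KRT8 and KRT19. MAGE genes of cancer and testis had neither mark at 20 of 27. Families with near-identical copies hold stretches to which 50-nt tags cannot be placed uniquely, and the absence of an island there was not tested against mappability. The 18 pseudoautosomal genes, whose copies on the sex chromosomes are identical, all had neither mark.

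Most genes of the enzymes that write, read and erase these marks were themselves marked by H3K4me3. H3K4me3 only (53.4% of all promoters) was found at 17 of 18 subunits of the H3K4 methyltransferase complexes, with SETD1B (21.6 and 8.4 kb), KMT2A (6.0 and 4.6 kb), KMT2B (8.4 and 6.4 kb) and HCFC1 (8.4 and 6.0 kb) as the most covered. PAGR1 was the exception, with both marks. Of 12 PRC2 subunits 9 had H3K4me3 only, among them the catalytic subunit EZH2 (4.2 and 3.0 kb), RBBP4, RBBP7 and JARID2, and none had H3K27me3. EED, AEBP2 and PHF19 had neither mark at the gene start and H3K4me3 only at the canonical start, where all 12 subunits had it. Of the PRC1 genes 14 of 19 had H3K4me3 only. H3K4me3 was found in both replicates at all 19, and H3K27me3 joined it at 3, a share of 15.8% against 17.9% of all promoters. Among these were CBX8 (11.6 and 11.8 kb of H3K27me3) and PCGF3 (3.0 and 2.2 kb). At BMI1 and CBX7 H3K27me3 was found in a single replicate, replicate 2 for BMI1 and replicate 1 for CBX7. Of 10 demethylase genes 8 had H3K4me3 only, among them KDM5A, KDM5B, KDM6A and KDM6B in islands of 2.4 to 14.8 kb, and 2 had neither mark.

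The loci that the study used as ChIP-qPCR controls and other well-known genes gave the following values. ACTB, the beta-actin gene (gene start at 5603533 on chromosome 7), had H3K4me3 over 61.7% and 51.7% of the window in replicates 1 and 2 and no H3K27me3 in either library. GAPDH (start at 6643678 on chromosome 12) had H3K4me3 over 100% of the window in both replicates, in islands of 12.2 and 6.8 kb, and no H3K27me3. CCND2, the cyclin D2 gene (start at 4378937 on chromosome 12), had no H3K4me3 in either library and H3K27me3 over 83.4% and 78.4%, in islands of 50.2 and 43.8 kb. The canonical starts of ACTB (5570232) and CCND2 (4382928) lie outside these windows, so the coverage given is not that of their canonical promoters. ACTB, GAPDH and CCND2 were each in the same class at the canonical start and with the spike-in lists. MYT1, a neural zinc finger gene (start at 62733747 on chromosome 20), had H3K27me3 over 100% of the window in both replicates, in islands of 22.8 kb, and an H3K4me3 island of 1.6 kb in replicate 1 alone. Its replicates therefore differed, and at its canonical start (62795805) it had H3K27me3 only. NKX2-1, the lineage factor of lung and thyroid (start at 36990354 on chromosome 14), had H3K4me3 over 61.2% and 41.2% and H3K27me3 over 100% and 63.8%. It was in the class on which the replicates differ when an island had to cover the start or 50% of the window, and kept both marks when any library was left out. EGFR (start at 55086710 on chromosome 7) had H3K4me3 over 100% and 92.7% of the window, and an H3K27me3 island of 5.4 kb in replicate 1 alone, over 72.3% of the window. EGFR would be in both without H3K27me3 replicate 2 and in H3K4me3 only without H3K27me3 replicate 1.

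**Figure D5:**
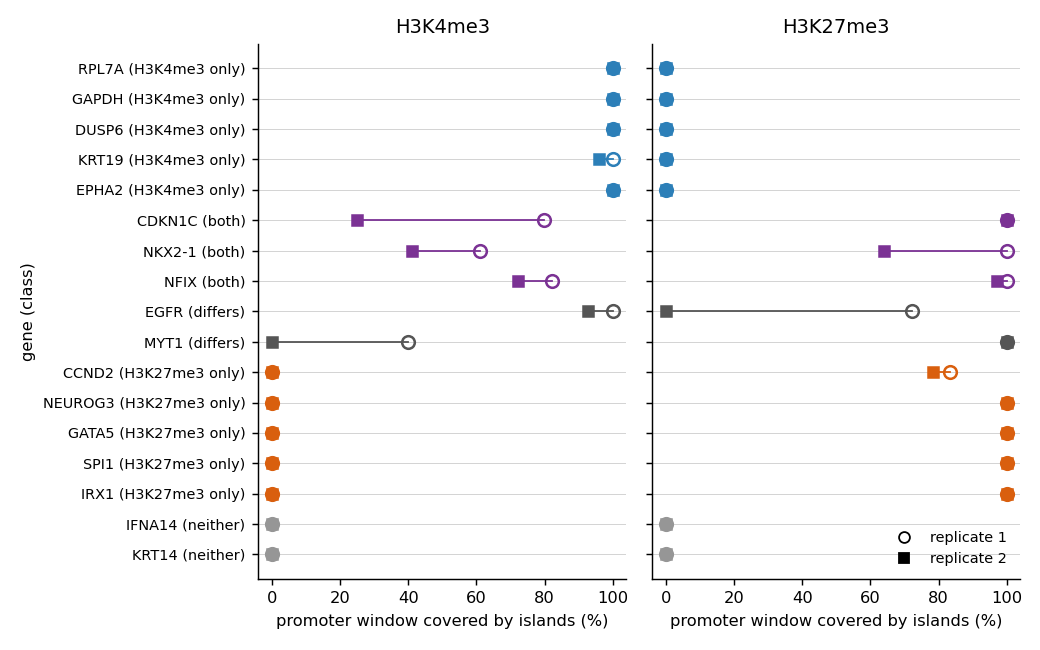
Share of the promoter window covered by H3K4me3 (left) and H3K27me3 (right) islands in replicate 1 (open circles) and replicate 2 (filled squares) for 17 named genes, coloured by class (replicates that differ in dark grey). H3K4me3 only genes have 0% H3K27me3 in both replicates, and at EGFR and MYT1 1 replicate of 1 mark is at 0%.

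Of the 1321 promoters 726 differed in H3K27me3 alone, 564 in H3K4me3 alone and 31 in both marks. The median H3K27me3 island at these promoters was 7.0 kb in replicate 1 and 4.2 kb in replicate 2, against 11.8 and 9.4 kb at H3K27me3 only promoters. The median H3K4me3 island was 2.6 kb in replicate 1, against 4.6 kb at H3K4me3 only promoters, but 2.4 kb in both classes in replicate 2. PAX3 had 100% of the window under H3K27me3 in both replicates and H3K4me3 over 2.1% in replicate 1 alone. WNT1 had H3K27me3 over 100% and 82.6% and H3K4me3 over 42.6% in replicate 1 alone. At FZD1, a Wnt receptor, H3K4me3 covered 93.7% and 73.7%, and H3K27me3 covered the whole window in replicate 1 but was not found in replicate 2. WNT ligands had the largest share of such genes among the 47 lists, with 5 of 19 (26.3%), against 6.56% of all promoters. T-box genes were close, with 4 of 17 (23.5%).

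The classes also differed in the length and spacing of their genes. The median gene length was 32.4 kb for H3K4me3 only, 26.4 kb for both marks, 18.8 kb for neither and 17.7 kb for H3K27me3 only. Windows of H3K4me3 only promoters overlapped the window of another promoter at 33.7%, those with both marks at 22.1%, those with H3K27me3 only at 11.0% and those with neither at 8.89%, so that 1 island can mark 2 genes. In windows that overlapped no other promoter there were 7122 promoters with H3K4me3 only, 2048 with H3K27me3 only, 860 with both and 4254 with neither. Neighbouring genes often had the same class. The next gene along the chromosome was of the same class for 67.0% of H3K4me3 only promoters (53.4% of all promoters), for 36.8% of H3K27me3 only promoters (11.4% of all), for 20.5% of promoters with both marks (5.48% of all) and for 48.8% of those with neither (23.2% of all). H3K27me3 only made up 20.1% of the 547 promoters of chromosome 20 and 3.15% of the 761 of chromosome 4. Among the autosomes and chromosome X, both marks were most frequent on chromosome 22 (12.7% of 450) and least frequent on chromosome 21 (0.873% of 229). Chromosome Y was left out of this ranking. Copy number differs between chromosomes in cancer cell lines, and its part in these shares was not tested.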

How the data were processed

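Islands of enrichment were taken from the deposited lists of 4 DMSO libraries. According to the authors, 50-nt tags were aligned to hg19 (GRCh37) with BWA, duplicates and tags with a mapping quality of 25 or less were removed, human tags were removed at random to equal depth within a replicate (standard lists), and SICER was run for each library with windows of 200 bp, gaps of 600 bp (H3K27me3) or 200 bp (H3K4me3) and an E-value of 1. The submitters' processing notes also name SAMtools 0.1.18. The deposited score of an island is the sum of negative log Poisson probabilities over its windows. It was used to recover tag densities, for a stricter threshold and to choose the highest-scoring islands where equal numbers of islands were kept. The first and last bases were taken as inclusive, counted from 0.

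Gene starts came from GENCODE release 44 mapped to GRCh37 (5′ end of the gene model), and 18 second copies of pseudoautosomal genes were left out. The gene start was that of the canonical transcript for 44.1% of genes. Overlaps were computed with Python 3.11.15, NumPy 2.4.6 and pandas 2.3.3, and the classing was tested on simulated islands. Marks were compared over libraries by exact permutation tests. Class counts are given with the range over the 4 choices of 1 library per mark, which shows the spread between libraries and lies above each count, since requiring both replicates lowers every class. This was used because the lists hold no counts and no interval for depth could be computed. Lists were described by counts beside all promoters and not tested. The genes named are, for each of 47 lists, up to 4 members with the highest coverage in the most frequent class of the list (in alphabetical order for neither mark) and members of other classes where these were at most 5, the 6 genes with the longest islands of each marked class, and MYT1, CCND2, ACTB, GAPDH, EGFR and NKX2-1. The members, the lists and this rule were chosen with earlier results of these data known. Some named genes and sequences that the rule chose are not reported here. Alternatives are given in the closing section.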

Additional observations from a re-analysis of the deposited data

How the results depend on the processing

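Of 7 main results, the difference between the marks in the share of promoters (31.7 to 44.9 percentage points) and in island length (4.0 to 7.9 kb) kept its direction under all alternatives, with p = 0.333 in each exact permutation test of unpaired libraries. The number of promoters with both marks (1104) moved most among the 4 classes, to 722 with a score of at least 2 times the lowest, 504 with the start covered and 223 with at least 50% of the window covered. The last setting left 4669 promoters on which replicates differed. H3K4me3 only fell to 7122 in windows that overlap no other promoter. Leaving out each library in turn gave 595 to 757 promoters on which replicates differed, and none (0) did when a mark absent from either replicate counted as lacking. Canonical starts, a window of 1000 bp, equal numbers of islands, every protein-coding transcript start, 500 bp of overlap, autosomes and the spike-in lists moved no main count by over 1.5 times. Of 960 other values under the alternatives, mostly list counts, 136 moved. Fewer genes were tested in windows that overlap no other promoter and on autosomes. The density of H3K4me3 replicate 2, 5.86 times below replicate 1, limits what that library can show. The labels carry no replicate numbers, but the spike suffix of the titles matches the libraries of both marks. Paired in this way (replicate block, chosen after seeing the data), the marks differed by 43.6 and 40.9 percentage points (mean 42.2) and by 5.2 and 5.0 kb (mean 5.1), with p = 0.5 by exact sign flips, the smallest p that 2 pairs allow.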

Other observations

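Long runs of neighbouring genes had 1 class, and the runs named here were chosen after their values were seen. The longest run of H3K27me3 only held 19 genes of chromosome 21, with gene starts from 45770046 (TRPM2) to 46131487 (TSPEAR) in GRCh37, most of them keratin-associated protein genes of the KRTAP10 and KRTAP12 groups. A run of 13 genes on chromosome 17 was made up mostly of olfactory receptor genes (OR1D2 to SPATA22, 3007716 to 3417146), and another of 13 held the CD300 receptors of leukocytes (DNAI2 to CD300LF, 72270373 to 72709117). On chromosome 19, 10 neighbours from LILRB4 to NCR1, which include the KIR receptors of natural killer cells, had H3K27me3 only. By contrast, a part of the replication-dependent histone genes of chromosome 6 lay in a run of 18 genes with H3K4me3 only (ZNF391 to H2BC17, 27342394 to 27861203), and zinc finger genes of chromosome 19 in a run of 22 (PBX4 to ZNF493). Runs with both marks were short, the longest with 6 genes (DGAT1 to FBXL6 on chromosome 8).

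CpG-rich promoters with neither mark numbered 758, or 16.2% of the promoters with neither mark. Of these, 710 had neither mark at the canonical start too and 28 had H3K4me3 only there. Among all promoters with neither mark, 478 had H3K4me3 only at the canonical start, and among those with H3K27me3 only 70 did. The class was the same at both starts for 97.2% of H3K4me3 only, 92.7% of H3K27me3 only, 89.6% of both and 86.3% of neither.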
